A study of Homo sapiens with 7 samples.

Results

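FOXO1, FOXO3, FOXO4 and FOXP1 are the forkhead transcription factor genes most studied in B cells, and the binding of 6 regulators around them was examined in a lymphoma line. They are 4 of 19974 protein-coding genes placed on chromosomes 1 to 22 and X by RefSeq (GRCh38.p14), and were chosen by name. Every peak inside each gene, or with its summit (the position of highest coverage) within 100 kb of either gene end, was taken. A peak was called promoter when its summit lay within 1 kb of a listed transcription start and distal otherwise. FOXO1 lies at chr13:40555667-40666641 on the minus strand, FOXO3 at chr6:108559825-108684774 on the plus strand, FOXO4 at chrX:71095851-71103532 on the plus strand, and FOXP1 at chr3:70954708-71583978 on the minus strand.

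The study mapped the factors OCT2 and OCT1 and the coactivators OCA-B, MED1, EP300 and CREBBP by ChIP-seq (sequencing of DNA recovered with an antibody) in OCI-Ly7 cells, an established line of diffuse large B-cell lymphoma of germinal centre type for which the labels name no treatment. OCA-B is a lymphoid coactivator that joins the octamer-binding factors OCT2 and OCT1, MED1 is a Mediator subunit, and CREBBP and EP300 are related histone acetyltransferases. The antibodies came from Abcam (OCA-B), Bethyl (MED1) and Santa Cruz (the other factors), and the 6 lists were called against 1 common input library. Each factor had 1 library of 1 cell line, so the values cannot be checked against replicates and no p-value is given. After duplicates were set aside the libraries held 12357450 (CREBBP) to 27885791 (EP300) tags, and the lists held 23571 (OCT1) to 82569 (EP300) peaks, so counts and folds do not rank the factors. Of 4 B cell marker genes with a listed start, all 4 had OCA-B, OCT2, MED1, CREBBP and EP300 there and 2 had OCT1. No peak lay at the starts of 4 of 5 T cell, 3 of 3 myeloid and 2 of 2 liver marker genes. The remaining T cell marker had all 6 lists at its start. In all, 8 B cell, 7 T cell, 6 myeloid and 4 liver markers were chosen, and those without a listed start were not counted here. Over all protein-coding genes with a listed start, 29.5% (CREBBP) to 46.5% (OCA-B) had a peak of a given list there. Away from the starts the markers were less clearly apart. Median distal regions (touching peaks joined) per 100 kb were 19.2 for B cell, 11.4 for T cell, 3.92 for myeloid and 5.51 for liver markers, against 5.42 over all genes.

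Forkhead factors bind DNA through a winged-helix domain. FOXO proteins act downstream of PI3K and AKT: phosphorylation by AKT moves them from the nucleus to the cytoplasm, and unphosphorylated FOXO turns on genes of cell cycle arrest, cell death and lymphocyte homing. FOXO1 is needed at several steps of B cell development and for the dark zone of the germinal centre, and is recurrently mutated in diffuse large B-cell lymphoma. FOXO3 and FOXO4 are relatives with overlapping targets. FOXP1 is needed for early B cell development, is normally reduced in germinal centre B cells, and is translocated or highly expressed in some B cell lymphomas, where shorter proteins from internal starts have also been described.

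The sequences before the starts are given ahead of the promoter results, as the 4 genes differ there in base composition. The 250 bases that end just before a start are shown 5′ to 3′ in the direction of the gene, taken from RefSeq (GRCh38.p14), with each CG dinucleotide in capitals. They are the starts of FOXO1, FOXO3 (start 1) and FOXO4, an internal start of FOXP1 (start 2) that carried strong peaks of OCA-B, OCT2 and OCT1, and the start of the long noncoding RNA gene LINC00598, which lay under the strongest distal site of FOXO1.
FOXO1, chr13:40666642-40666891, minus strand: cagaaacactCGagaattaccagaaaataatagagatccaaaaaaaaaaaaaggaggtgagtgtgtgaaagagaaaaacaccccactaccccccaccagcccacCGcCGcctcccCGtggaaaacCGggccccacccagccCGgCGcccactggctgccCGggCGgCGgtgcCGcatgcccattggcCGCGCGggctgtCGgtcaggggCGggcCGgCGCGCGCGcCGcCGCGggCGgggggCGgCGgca
FOXO3 start 1, chr6:108559575-108559824, plus strand: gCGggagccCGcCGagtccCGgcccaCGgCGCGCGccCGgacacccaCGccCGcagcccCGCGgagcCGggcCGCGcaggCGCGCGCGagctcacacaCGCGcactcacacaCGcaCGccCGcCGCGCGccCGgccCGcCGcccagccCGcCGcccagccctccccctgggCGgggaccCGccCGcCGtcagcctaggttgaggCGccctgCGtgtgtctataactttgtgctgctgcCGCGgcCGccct
FOXO4, chrX:71095601-71095850, plus strand: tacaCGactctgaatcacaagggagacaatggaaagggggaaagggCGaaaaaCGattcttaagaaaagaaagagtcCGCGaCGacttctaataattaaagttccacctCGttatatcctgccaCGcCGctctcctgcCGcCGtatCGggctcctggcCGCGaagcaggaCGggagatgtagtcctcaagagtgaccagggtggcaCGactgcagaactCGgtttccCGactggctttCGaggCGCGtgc
FOXP1 start 2, chr3:71543558-71543807, minus strand: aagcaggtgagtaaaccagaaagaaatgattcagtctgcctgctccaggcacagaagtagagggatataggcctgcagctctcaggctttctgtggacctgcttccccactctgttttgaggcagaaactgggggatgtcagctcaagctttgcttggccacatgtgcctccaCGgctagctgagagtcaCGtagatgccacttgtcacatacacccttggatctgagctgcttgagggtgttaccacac
LINC00598, chr13:40481005-40481254, minus strand: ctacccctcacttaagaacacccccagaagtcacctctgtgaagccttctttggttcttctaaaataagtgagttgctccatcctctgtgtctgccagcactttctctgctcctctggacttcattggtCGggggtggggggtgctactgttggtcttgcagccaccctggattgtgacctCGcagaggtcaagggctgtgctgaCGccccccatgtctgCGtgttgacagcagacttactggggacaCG
The stretch before FOXO1 holds 27 CG dinucleotides, that before FOXO3 holds 42, and that before FOXO4 holds 21. FOXP1 start 2 and LINC00598 hold 2 and 5. In the whole table windows, which also take in the 50 bases after the start, GC content was 68.0% at FOXO1, 78.3% at FOXO3 start 1, 56.3% at FOXO4, 54.0% at FOXP1 start 2 and 54.3% at LINC00598, against a median of 58.7% over 35116 windows. The FOXP1 start with the strongest peaks of the OCT factors and OCA-B within 1 kb was a CG-poor internal one, and the start nearest its 5′ end had 75.0% GC. Those summits lay 502 to 530 bp downstream of start 2, outside the window. The FOXO3 start 1 summits, 677 to 991 bp upstream, were also outside, so base composition under these peaks was not examined.

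The same windows were searched on both strands for the octamer ATGCAAAT bound by OCT factors, its first letters ATGCAAA (which every octamer also contains), and the forkhead motif GTAAACA. Among all windows, 1.77% held ATGCAAAT, 4.46% held ATGCAAA and 3.42% held GTAAACA. None of the 12 windows of the 4 genes held ATGCAAAT. ATGCAAA was found at FOXP1 start 4, beginning 15 bases after the start, and GTAAACA was found at FOXO4, 24 bases after the start, and at FOXP1 start 4, 193 bases before it and on the opposite strand. These are shown with the motif in capitals, each read in the direction of the gene.
FOXP1 start 4, chr3:71245047-71245073, minus strand: agctctgtatATGCAAAcctgttttta
FOXP1 start 4, chr3:71245254-71245280, minus strand: actatgttatTGTTTACtttaccatac
FOXO4, chrX:71095864-71095890, plus strand: ccggcgagtgGTAAACAgagacgtcag
No list had a summit within 1 kb of FOXP1 start 4, and the summits nearest to the FOXO4 start in the OCT2 and EP300 lists lay 413 and 368 bp downstream of it. A match is a description of the letters only, and the sequence under the peaks outside these windows was not searched.

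At the promoters, the 4 genes fell into a group with peaks of every list (FOXO3 and FOXP1) and a group with fewer lists (FOXO1 and FOXO4). The grouping depends on the 1 kb limit: with 2 kb FOXO1 had all 6 lists, and with 500 bp FOXO3 had 2. FOXO1 and FOXO4 also have 1 listed start each, against 4 at FOXO3 and 6 at FOXP1. Over the 15812 protein-coding genes with a listed start, 46.5% had a promoter peak of OCA-B, 39.4% of OCT2, 44.5% of OCT1, 32.8% of MED1, 29.5% of CREBBP and 44.2% of EP300, and 21.0% had all 6. OCA-B, OCT2 and EP300 lay at a start of all 4 genes, CREBBP at 3, and OCT1 and MED1 at 2. With 4 genes these counts describe the genes and say nothing of promoters in general. Fold enrichment below is the authors' peak caller's ratio of coverage at the summit to the local background.

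FOXO1 has 1 listed start. Its promoter region, 207 bp wide, had peaks of OCA-B (fold 5.46), OCT2 (4.30), CREBBP (4.91) and EP300 (4.95), with summits 232 to 263 bp upstream of the start. These folds were low for the OCT2 and CREBBP lists, where 76.9% and 74.4% of peaks were at least as high. They were just below the middle of the OCA-B and EP300 lists, with 52.5% and 57.0%. OCT1 and MED1 had no summit within 1 kb. The nearest OCT1 summit lay 1119 bp downstream (fold 5.06) and the nearest MED1 summit 1903 bp upstream (fold 6.33), the latter in a distal region that all lists except OCT1 shared. With every list shortened to the length of the OCT1 list, no promoter peak was left at FOXO1 or FOXO4.

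FOXO3 has 4 listed starts, and start 1 had a peak of every list. The folds were 23.3 for OCT2, 5.57 for OCT1, 12.5 for OCA-B, 13.6 for MED1, 10.3 for EP300 and 11.1 for CREBBP. OCT2 stood out within its own list, where 5.80% of peaks were at least as high. All 6 summits lay 677 to 991 bp upstream of the start, near the outer limit of the promoter class, and the same region (chr6:108558460-108559514) also covers the start of the lncRNA gene LOC124901372. The binding could therefore be listed under either gene, and the 2 lists left with the 500 bp limit were both at start 4. Starts 2 and 3, 1.09 and 1.34 kb into the gene, had no summit within 1 kb. Start 4, 28.9 kb into the gene, had OCA-B (5.88), OCT2 (6.96), MED1 (7.10), CREBBP (7.67) and EP300 (10.2) and lacked OCT1.

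At the FOXO4 start, OCA-B (fold 7.16), OCT2 (5.48) and EP300 (4.65) had peaks 368 to 413 bp downstream of the start. A further OCA-B peak of fold 4.37 lay 207 bp upstream. MED1 came no nearer than 2683 bp, CREBBP 15.8 kb and OCT1 22.7 kb. FOXO4 was thus the member with the fewest lists at its start, 3 of 6.

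FOXP1 has 6 listed starts spread over 518.8 kb. Start 1 had all 6 lists, with folds of 9.71 for OCT2, 19.0 for OCT1, 11.0 for OCA-B, 10.4 for MED1, 7.79 for EP300 and 12.2 for CREBBP. OCT1 was high for its list there, with 3.26% of OCT1 peaks at least as high, and its summit lay 455 bp downstream of the start while the other 5 lay within 247 to 272 bp. A neighbouring region at the start of the divergent lncRNA gene FOXP1-DT, 1.22 kb upstream, held every list except OCT1, with folds of 5.86 (EP300) to 9.07 (CREBBP).

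Start 2 of FOXP1, 40.2 kb into the gene, had the highest promoter folds of OCA-B (20.4), OCT2 (25.5), OCT1 (20.7) and EP300 (20.2) among all starts of the 4 genes, with CREBBP at 11.3 and MED1 at 6.22. Within their lists 3.34% of OCA-B, 4.74% of OCT2 and 2.71% of OCT1 peaks were at least as high, against 26.6% of CREBBP and 36.6% of MED1 peaks. The OCA-B, OCT2 and OCT1 summits lay 502 to 530 bp downstream of the start, and the MED1, CREBBP and EP300 summits 882 to 927 bp downstream. The region, chr3:71542060-71544029, reaches the hairpin of the microRNA gene MIR1284 (chr3:71541970-71542089). Starts 3 and 4 had no peak within 1 kb. Start 5, at 451.5 kb, had OCA-B (7.31), OCT2 (8.89) and EP300 (4.24), and start 6, at 518.8 kb, had all 6 lists with folds between 3.26 (OCT1) and 5.49 (EP300).

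**Figure D1:**
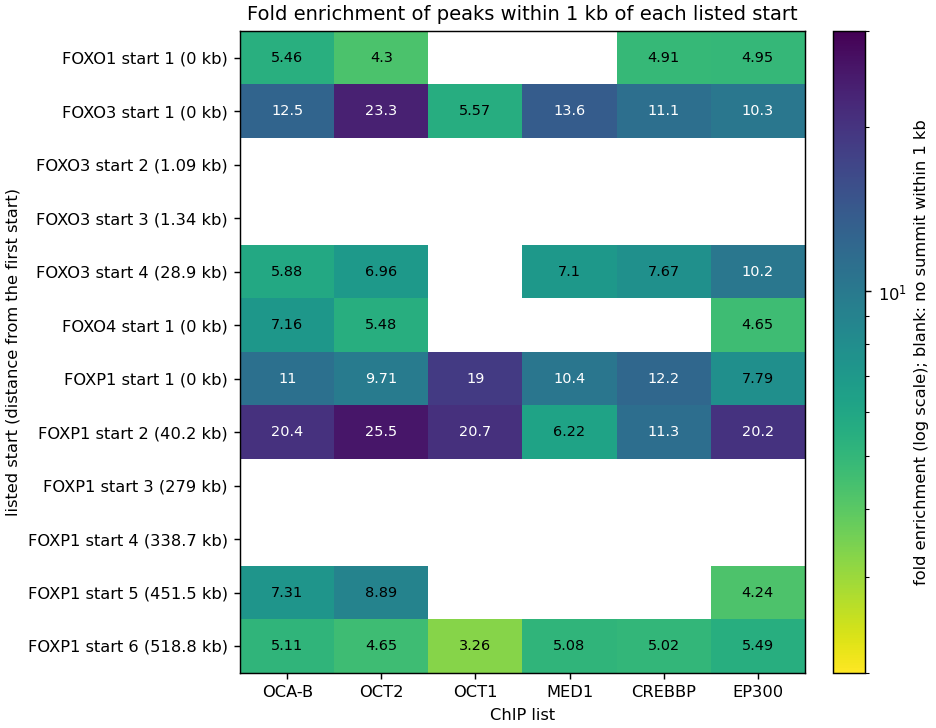
Fold enrichment (colour, log scale, and number) of the highest peak of each list (columns) with its summit within 1 kb of each listed start (rows), blank where there was none, 1 library per list. FOXO3 start 1 and FOXP1 starts 1, 2 and 6 have all 6 lists, and FOXO3 starts 2 and 3 and FOXP1 starts 3 and 4 have none.

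Away from the starts, FOXO1 was far denser in peaks than most genes, and the other 3 less so. Peaks of the 6 lists that touched, directly or through a chain, were joined into regions. FOXO1 had 98 distal regions in its 311.0 kb window, FOXO3 had 38 in 324.9 kb, FOXO4 had 14 in 207.7 kb and FOXP1 had 100 in 829.3 kb, while over all genes the median count was 14 and the median window 224.2 kb. Per 100 kb of window these are 31.5 for FOXO1, 11.7 for FOXO3, 6.74 for FOXO4 and 12.1 for FOXP1, against a median of 5.42. Only 0.245% of protein-coding genes were at least as dense as FOXO1, compared with 19.4% for FOXO3, 18.2% for FOXP1 and 41.6% for FOXO4. FOXP1 reached a like count to FOXO1 over a window that is longer because the gene itself spans 629.3 kb. At least 1 distal region was present at 95.4% of genes, so its presence says nothing about the 4 members. Local background differed between the loci. At the strongest distal OCA-B peak, pileup (fragments at the summit) and fold were 130 and 23.9 at FOXO1 and 131 and 34.4 at FOXO3. They were 42 and 18.4 at FOXO4 and 141 and 20.7 at FOXP1. Densities were not adjusted for local background, and its part in their differences was not tested.

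The density of FOXO1 was high in each list, and least so for OCT1. Per 100 kb it had 29.9 distal peaks of EP300, 23.5 of OCT2, 14.5 of CREBBP, 13.8 of OCA-B, 13.8 of MED1 and 3.54 of OCT1. Genes at least as dense made up 0.100% for EP300, 0.230% for OCT2, 1.42% for CREBBP, 2.06% for MED1, 3.65% for OCA-B and 14.0% for OCT1. The EP300 list is the longest and comes from the deepest library; with it left out, 0.816% of genes were at least as dense as FOXO1, and with every list shortened to the 23571 peaks of the OCT1 list the share was 2.50%.

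FOXP1 had 10.6 distal EP300, 10.2 OCT2, 6.27 OCA-B, 5.31 CREBBP, 3.74 MED1 and 1.81 OCT1 peaks per 100 kb. Its highest place was in the OCT2 list, where 9.14% of genes were at least as dense, and its lowest in the OCT1 list, with 34.2%. With the lists shortened, its place over all regions moved from 18.2% to 28.4%. FOXO3 had 10.8 EP300, 8.31 OCT2, 5.85 CREBBP, 5.23 MED1, 4.92 OCA-B and 1.85 OCT1 peaks per 100 kb, and between 12.5% (EP300) and 33.6% (OCT1) of genes were at least as dense. FOXO4 lay near the middle of all genes, with 23.7% (CREBBP) to 52.0% (OCT1) of genes at least as dense. At least 1 distal peak was found at 92.9% of genes for OCT2, 81.2% for OCT1, 88.8% for OCA-B, 80.4% for MED1, 91.3% for EP300 and 83.6% for CREBBP, and at all 4 members for every list.

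**Figure D2:**
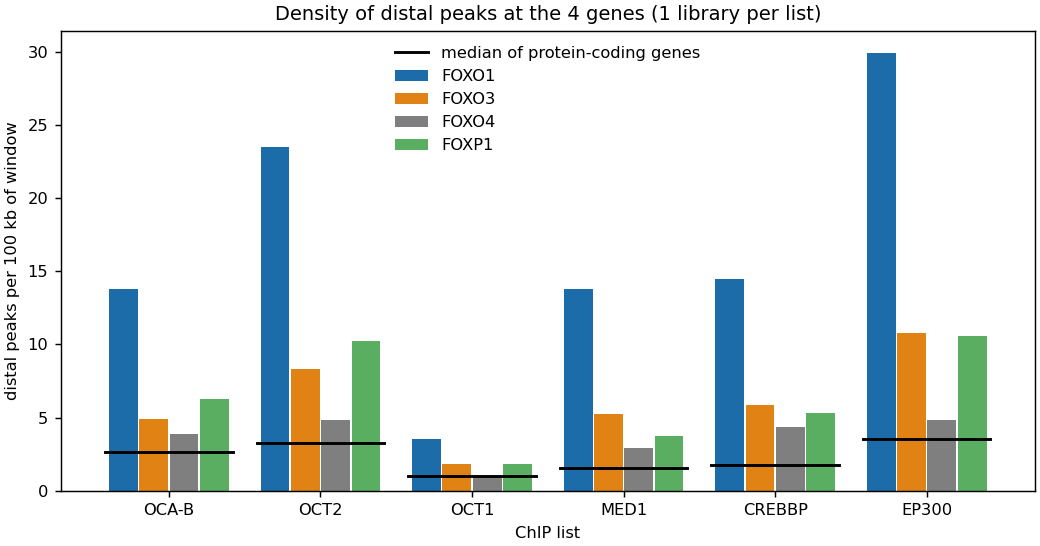
Distal peaks per 100 kb of window (linear axis from 0) of each list at FOXO1, FOXO3, FOXO4 and FOXP1, 1 library per list, with a black line at the median of 19974 protein-coding genes. FOXO1 is the highest of the 4 genes in every list, from 3.54 for OCT1 to 29.9 for EP300, and FOXO4 is the lowest.

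The regions were not spread evenly along the windows. In FOXO1, 55 of the 98 distal regions lay inside the gene, or 49.6 per 100 kb, with 21 in the 100 kb upstream and 22 in the 100 kb downstream. In FOXP1, 93 of 100 lay inside the gene and 7 upstream, and the 100 kb beyond its 3′ end held none. FOXO3 had 23 inside, 7 upstream and 8 downstream. FOXO4, a gene of 7.68 kb among close neighbours, had 2 inside, 2 upstream and 10 downstream, and 5 of the 14 lay within 1 kb of the start of another gene. Regions covered 22.4% of the FOXO1 window, 9.54% at FOXO3, 9.30% at FOXP1 and 3.38% at FOXO4. The longest gap between neighbouring regions was 46.4 kb at FOXO1 (42.1 to 88.5 kb upstream) and 41.6 kb at FOXO3 (131.9 to 173.5 kb from start 1, beyond the gene's end). It was 49.5 kb at FOXO4 (33.6 to 83.1 kb from the start) and 51.0 kb at FOXP1 (266.1 to 317.1 kb into the gene, a stretch that contains start 3). Empty stretches that reach a window edge were not counted and were longer at FOXP1 and FOXO4. At FOXP1 this is the 100 kb beyond the 3′ end, and at FOXO4 no region lay more than 28.0 kb upstream.

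**Figure D3:**
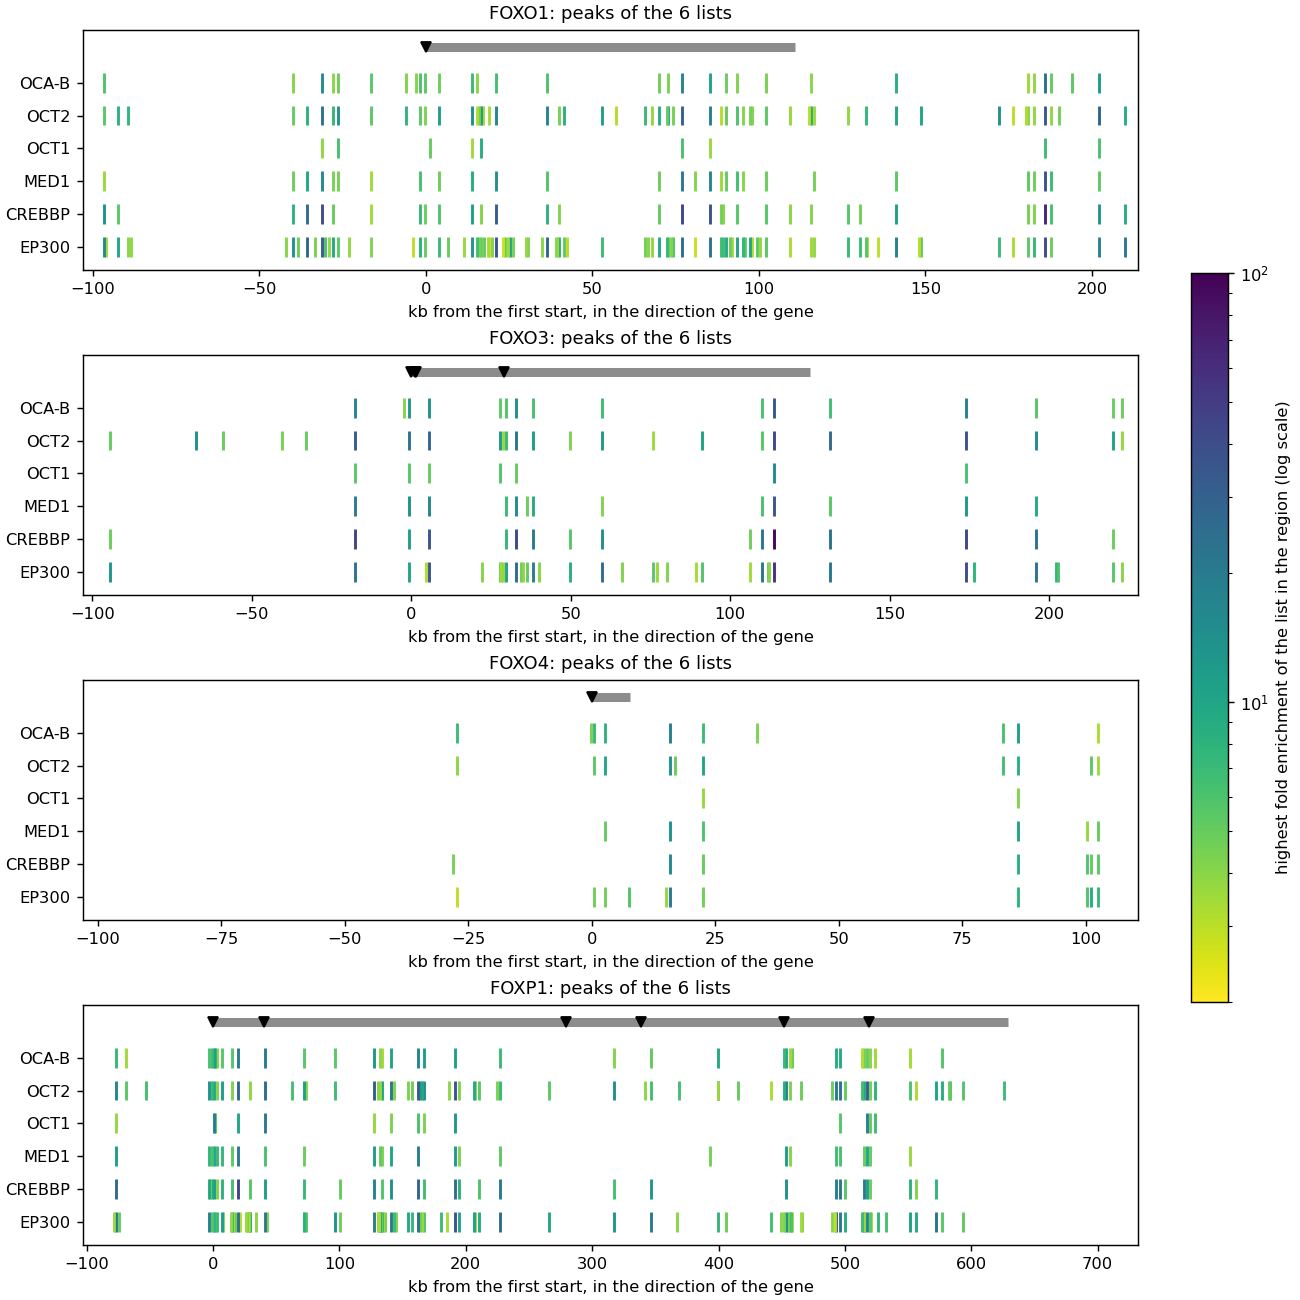
Position of every region with a peak of each list (rows) relative to start 1, in kb in the direction of the gene, with the gene as a grey bar and listed starts as triangles; colour is the highest fold enrichment on a log scale. The 55 distal regions inside FOXO1, the empty downstream flank of FOXP1 and the 10 regions downstream of FOXO4 can be seen.

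The strongest distal site of FOXO1 lay 185.8 kb from its start, beyond the 3′ end, in a region of 3491 bp (chr13:40479764-40483254) that covers the start of LINC00598, a lncRNA gene that runs away from FOXO1. The folds there were 34.3 for OCT2, 6.84 for OCT1, 23.9 for OCA-B, 37.4 for MED1, 40.8 for EP300 and 67.6 for CREBBP. In the MED1 and CREBBP lists it was number 213 and number 263 by fold, with 0.490% and 0.590% of peaks at least as high, against 1.88% of OCA-B, 1.89% of OCT2 and 1.23% of EP300 peaks. Which gene the site serves cannot be told from peak positions.

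Inside FOXO1, a pair of wide regions stood 76.8 and 85.3 kb from the start. The former (chr13:40586247-40592336, 6090 bp, 20 peaks) had folds of 30.7 for OCT2, 6.23 for OCT1, 17.1 for OCA-B, 21.0 for MED1, 25.4 for EP300 and 45.2 for CREBBP. The latter (chr13:40578655-40584424, 5770 bp, 14 peaks) had 18.1, 3.65, 10.5, 16.0, 22.7 and 36.5 in the same order. Upstream of FOXO1, the region 31.3 kb from the start had folds of 23.6 for OCT2, 3.82 for OCT1, 15.5 for OCA-B, 15.6 for MED1, 31.7 for EP300 and 41.0 for CREBBP. All 6 lists were thus present at strong sites upstream of, inside and downstream of the gene. The highest OCT1 fold of FOXO1, 8.80, was elsewhere, 16.6 kb into the gene, and 20.2% of OCT1 peaks were at least as high.

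The site with the highest distal fold of OCA-B, OCT2, CREBBP and EP300 at the 4 genes belonged to FOXO3, while MED1 was higher at FOXO1 (37.4) and OCT1 at FOXP1 (17.8). It lay inside the gene, 113.6 kb from start 1 and near its 3′ end (chr6:108672214-108674571), with a peak of every list. Folds were 42.7 for OCT2, 15.7 for OCT1, 34.4 for OCA-B, 36.0 for MED1, 57.1 for EP300 and 94.7 for CREBBP, each the highest distal fold of its list at FOXO3. The CREBBP peak was number 21 of its list, with 0.0471% of peaks at least as high, and the EP300 peak was number 123 (0.149%). For OCA-B, MED1 and OCT2 the shares were 0.323%, 0.579% and 0.654%, and for OCT1 5.12%. Further regions with all 6 lists stood 17.6 kb upstream (CREBBP 45.3, OCT2 33.4), 5.56 kb (EP300 36.7, CREBBP 35.6) and 32.9 kb (CREBBP 42.4) into the gene, and 174.0 kb from start 1, beyond the gene's end (CREBBP 44.2, EP300 41.0).

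In the FOXO4 window the strongest peaks of 5 lists were at the start of IL2RG, 15.8 kb from FOXO4. IL2RG encodes the common gamma chain of several interleukin receptors. The folds were 18.4 for OCA-B, 13.9 for OCT2, 13.8 for MED1, 16.2 for CREBBP and 20.3 for EP300, and OCT1 had no peak there. The start of MED12, which encodes a subunit of the Mediator kinase module, had all 6 lists at folds of 3.74 (OCT1) to 10.0 (OCT2), and a start of SNX12, a sorting nexin gene, had OCA-B, OCT2, CREBBP and EP300 at 2.97 to 7.03. The highest distal OCT1 fold was 4.12, at 85.7 kb. Counting only regions nearer to FOXO4 than to any other protein-coding gene left 2 of the 14 distal regions and no region with all 6 lists, so 12 of the 14 lay nearer to another protein-coding gene.

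Along FOXP1 the strongest site differed between lists. OCA-B (20.7), MED1 (20.3) and CREBBP (46.2) had their highest distal fold 19.7 kb into the gene (chr3:71562669-71566398), where OCT2 reached 27.3, OCT1 10.1 and EP300 24.6. OCT2 was highest at 191.2 kb (35.2; chr3:71389298-71393304), where EP300 was 35.9 and OCT1 12.7. EP300 was highest at 493.3 kb (37.2; chr3:71088671-71091106). OCT1 was highest at 517.3 kb (17.8), in a region that held OCT2 at 31.6 and that also has OCA-B, OCT1 and CREBBP summits within 1 kb of start 6. Strong sites were therefore spread over the gene from start 1 to start 6, whereas at FOXO3 all 6 lists were highest at the same distal site.

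Regions with a peak of every list numbered 6 at FOXO1, 6 at FOXO3, 2 at FOXO4 and 11 at FOXP1, promoter regions included. At least 1 such region was present in the window of 64.6% of genes, and the median gene had 1. At least as many were found at 7.86% of genes for FOXO1 and FOXO3, 42.6% for FOXO4 and 0.521% for FOXP1. These counts grow with the window. Per 100 kb there were 1.93 at FOXO1, 1.85 at FOXO3, 0.963 at FOXO4 and 1.33 at FOXP1, against a median of 0.458, and 11.4%, 12.8%, 28.6% and 21.6% of genes had at least that density. At FOXP1, 4 of the 11 were promoter regions, and joining peaks by summits within 250 bp, directly or through a chain, left 7. For FOXO4 the number fell to 1 with that rule or a 50 kb window, and to 0 with a threshold of 5 on −log10 q or with shortened lists.

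The makeup of the distal regions was close to that of all 93267 distal regions in some respects and apart from it in others. The latter leave out regions at the start of any protein-coding gene, whereas a member's regions were judged by its own starts alone. At FOXO4, 2 upstream and 3 downstream distal regions lay at the start of another protein-coding gene, so its shares are not like for like. Regions of 1 list made up 43.9% at FOXO1, 50% at FOXO3, 35.7% at FOXO4 and 48.0% at FOXP1, against 49.6% of all. Regions of 5 or 6 lists made up 22.4%, 26.3%, 28.6% and 19.0% in the same order, against 19.2%. EP300 alone accounted for 35.7% at FOXO1, 36.8% at FOXO3 and 35.0% at FOXP1, above the 25.2% of all distal regions, and for 14.3% at FOXO4. OCT2 alone was at 5.10%, 10.5%, 7.14% and 11.0%, below 14.7%. Regions of OCT2 and EP300 with no other list made up 15.3% at FOXO1, 5.26% at FOXO3 and 14.0% at FOXP1, with 0 of 14 at FOXO4, against 6.04%. No test was made of these differences.

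**Figure D4:**
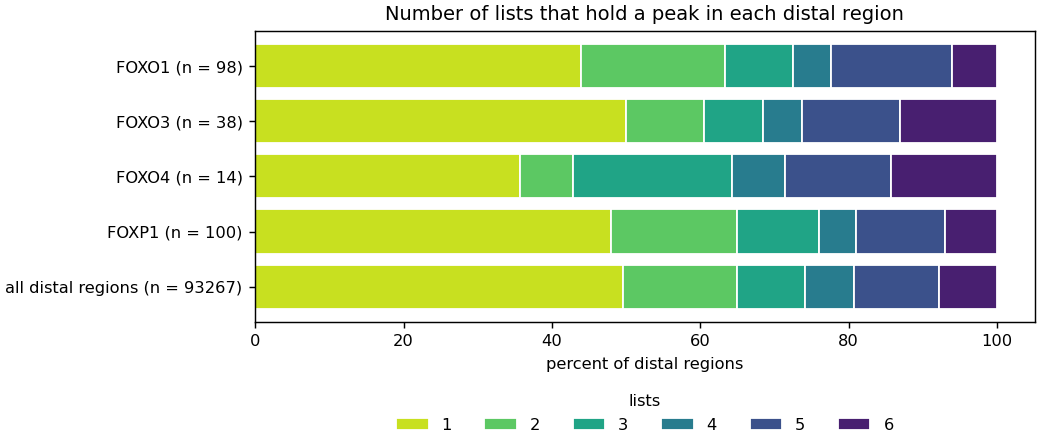
Share of distal regions (percent, linear axis) held by 1 to 6 lists at each gene and over all 93267 distal regions, which leave out the starts of all protein-coding genes. The number of regions is n. Regions of 1 list range from 35.7% at FOXO4 to 50% at FOXO3, and are 49.6% of all distal regions.

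Peak by peak, the share of OCT2 sites that OCA-B accompanied could not be told from that of all distal OCT2 sites at any of the 4 genes. It was 45.2% at FOXO1 (33 of 73 peaks; 95% exact Clopper-Pearson interval 33.5 to 57.3%), 51.9% at FOXO3 (14 of 27; 31.9 to 71.3%), 80.0% at FOXO4 (8 of 10; 44.4 to 97.5%) and 45.9% at FOXP1 (39 of 85; 35.0 to 57.0%), against 52.1% of all distal OCT2 peaks. Each interval contains that value. Here and below, shares of all distal peaks leave out peaks at the start of any protein-coding gene, whereas some FOXO4 peaks lay at such starts. The intervals cover counting error only, and neighbouring peaks of 1 gene share their surroundings.

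Among the counted peaks, the share of OCT2 peaks that overlapped EP300 was higher at FOXO1 and FOXP1 than over all distal OCT2 peaks. This describes neighbouring peaks, which are not independent. The share was 91.8% at FOXO1 (67 of 73; 83.0 to 96.9%) and 84.7% at FOXP1 (72 of 85; 75.3 to 91.6%), both with intervals above the 70.3% of all distal OCT2 peaks. FOXO3 had 85.2% (23 of 27; 66.3 to 95.8%) and FOXO4 80.0% (8 of 10; 44.4 to 97.5%), with intervals that include 70.3%. In the other direction, EP300 peaks overlapped OCT2 at 58.1% (FOXO1), 51.4% (FOXO3), 70.0% (FOXO4) and 56.8% (FOXP1), against 54.7% of all. OCA-B peaks overlapped MED1 at 83.7% in FOXO1 (36 of 43; 69.3 to 93.2%) and 76.9% in FOXP1 (40 of 52; 63.2 to 87.5%), against 63.5% of all distal OCA-B peaks, which lies below the former interval and just above the lower end of the latter. MED1 peaks overlapped EP300 at 43 of 43 (FOXO1), 17 of 17 (FOXO3), 6 of 6 (FOXO4) and 30 of 31 (FOXP1), where 89.4% of all distal MED1 peaks did. These intervals too cover counting error only. Distal EP300 peaks reached 6068 bp in width at FOXO1, so several OCT2 peaks can lie in the same EP300 peak. For distal EP300 peaks, 0.100% of genes were at least as dense as FOXO1 and 13.0% as FOXP1. Whether the OCT2 shares with EP300 go beyond that density was not tested.

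OCT1, the shortest list, had 2 to 15 distal peaks at each of the 4 genes, and most of them overlapped OCT2 and OCA-B. Of its distal peaks, 10 of 11 at FOXO1, 6 of 6 at FOXO3, 2 of 2 at FOXO4 and 14 of 15 at FOXP1 overlapped OCT2, against 78.5% of all distal OCT1 peaks. OCA-B lay at 9 of 11, 6 of 6, 2 of 2 and 14 of 15, against 76.6% of all distal OCT1 peaks. Intervals at these counts are wide, 58.7 to 99.8% for OCT2 at FOXO1, and contain the share of all.

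Median distal folds were low for their lists at FOXO1 and mostly high at FOXO3. At FOXO1 the medians were 5.24 for OCT2, 5.06 for OCT1, 4.48 for OCA-B, 4.75 for MED1, 4.91 for EP300 and 5.23 for CREBBP, each below the median of all distal peaks of its list (5.90, 5.40, 5.48, 5.18, 5.46 and 6.78). At FOXO3 they were 10.7 for OCT2, 5.61 for OCT1, 6.31 for OCA-B, 6.30 for MED1 and 19.0 for CREBBP, each above, while EP300, over 35 peaks, was at 5.43, just below. FOXP1 was above for MED1 (6.22), CREBBP (8.01) and EP300 (6.02) and below for OCA-B (5.21), OCT2 (5.67) and OCT1 (5.09). FOXO4, with 2 to 10 peaks per list, was above for OCT2 (5.93), OCA-B (6.98), MED1 (5.54) and EP300 (5.81) and below for OCT1 (3.93) and CREBBP (5.03). The medians of all distal peaks leave out peaks at the start of any protein-coding gene, whereas some FOXO4 peaks lay at such starts.

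Distal MED1 peaks within 10 kb of each other were chained into clusters, 14249 in all, and ranked by the pileup (fragments at the summit) summed over their peaks. Peaks at the start of any protein-coding gene were left out here, and pileup was not adjusted for local background. FOXO1 had 9 clusters. The highest ranked, number 291, ran for 32.6 kb inside the gene (69.6 to 102.2 kb from the start) with 13 MED1, 13 OCA-B, 20 OCT2, 15 CREBBP, 22 EP300 and 3 OCT1 peaks, and includes both wide regions described above. The next, number 519, spanned 8.29 kb at LINC00598 with 9 MED1 peaks. A cluster of 23.8 kb around the FOXO1 start, number 1152, held 10 MED1 peaks although the promoter itself had none, and a cluster of 23.7 kb upstream was number 1437. FOXP1 had 12 clusters, led by number 617, which spans 24.4 kb on both sides of start 1, and number 1195, of 14.6 kb at 127.1 to 141.7 kb. FOXO3 had 8, led by number 834 (32.0 to 38.9 kb), and FOXO4 had 3, none ranked above number 6841. Only 4 of the 6 distal MED1 peaks of FOXO4 entered clusters, and its strongest, at the start of IL2RG, did not.

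Among the forkhead family as a whole, FOXO1 was the densest. The other 40 forkhead genes had a median of 4.19 distal regions per 100 kb (range 0 to 25.3), below the 5.42 of all protein-coding genes. None exceeded FOXO1, 3 exceeded FOXP1, 4 exceeded FOXO3 and 10 exceeded FOXO4. The 4 densest were FOXR1 (25.3), FOXK2 (17.6), FOXH1 (13.3) and FOXA3 (11.9). No region at all was found at FOXA1, FOXB2 and FOXQ1, among others. Of the nearest relatives of the members, FOXO6 (0.900), FOXP2 (0.619) and FOXP4 (3.12) lay below the median of all genes, and FOXP3 (7.93), the factor of regulatory T cells, lay above it and above FOXO4. Of 29 with a listed start, 7 had OCA-B there, 5 OCT2, 4 OCT1, 3 MED1, 2 CREBBP and 4 EP300, or 24.1%, 17.2%, 13.8%, 10.3%, 6.90% and 13.8%, all lower than the shares of all genes given above. A region with all 6 lists was found at 50% of the 40, against 64.6%.

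**Figure D5:**
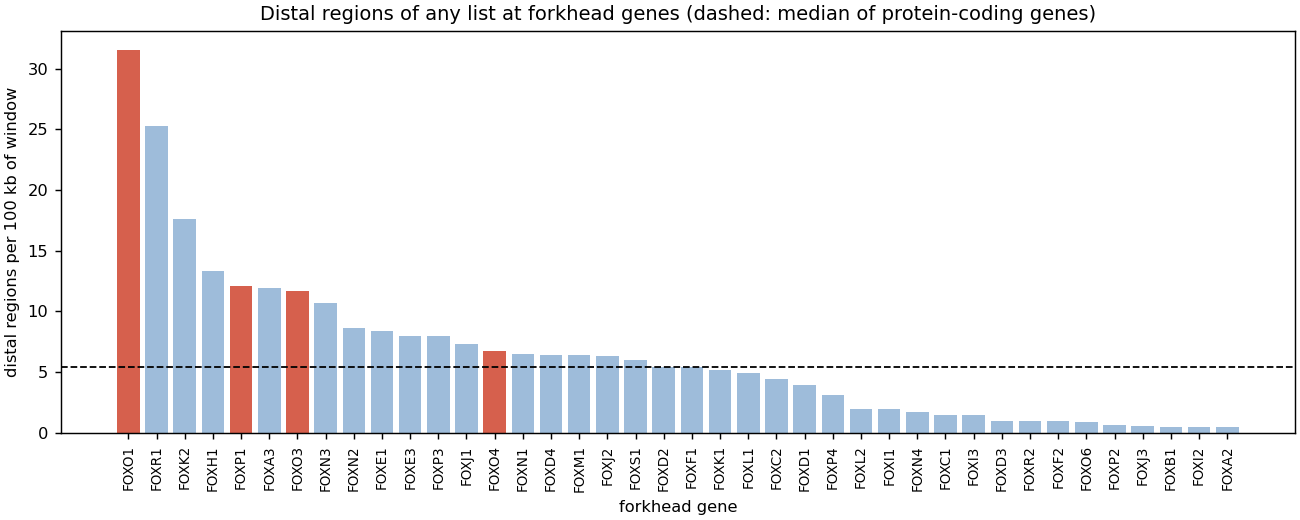
Distal regions per 100 kb of window (bars from 0) for forkhead genes with at least 1 distal region in order of density, with FOXO1, FOXO3, FOXO4 and FOXP1 in red, the others in blue, and a dashed line at the median of all protein-coding genes (5.42). FOXO1 (31.5) is the highest, and FOXR1 (25.3) follows; the 4 genes without a distal region are not drawn.

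Genes of the FOXO circuit were richer in peaks than the family. For reference, all protein-coding genes had a median of 5.42 distal regions per 100 kb, and 64.6% had a region with all 6 lists. The 24 regulators of FOXO proteins (AKT and SGK kinases, PI3K subunits, 14-3-3 proteins, the exporter XPO1 and others) had a median of 9.10 distal regions per 100 kb, led by MDM2 (20.6), XPO1 (20.3), USP7 (16.2) and PIK3CD (15.9), and 75.0% had a region with all 6 lists. The 28 FOXO target genes had a median of 11.3, led by CDKN1A (24.7), a cell cycle inhibitor, PCK1 (21.7), CXCR4 (20.1), the dark zone homing receptor, and IL7R (18.9), and 78.6% had a region with all 6 lists. No gene of either list reached the density of FOXO1. Of the 19 regulators with a listed start, OCA-B lay there at 13 (68.4%), OCT2 at 12 (63.2%), OCT1 at 16 (84.2%), MED1 at 11 (57.9%), CREBBP at 8 (42.1%) and EP300 at 13 (68.4%). Of the 22 such targets, the numbers were 13 (59.1%), 13 (59.1%), 12 (54.5%), 12 (54.5%), 12 (54.5%) and 14 (63.6%). Over all genes with a listed start the shares were 46.5%, 39.4%, 44.5%, 32.8%, 29.5% and 44.2% in the same order, each lower than in either list, and no test was made of the difference. At the sparse end were PIK3R1 (2.80) among the regulators, and RAG1 and RAG2, the recombinase genes that FOXO1 turns on in earlier B cells (2.97 and 3.38), among the targets.

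By distance over log2(1 + distal peaks per 100 kb) in the 6 lists, the genes whose profile was most like FOXO1 were RAB30 (0.33), GNA13 (0.50) and SAMD7 (0.50). GNA13 encodes a G protein subunit that confines germinal centre B cells, and had 31.1 EP300 and 22.6 OCT2 peaks per 100 kb. For FOXO3 they were MCF2L2 (0.14), ANAPC15 (0.17) and ARHGEF3 (0.18), for FOXO4 STX18 (0.23), LOC128966684 (0.26) and ACSL3 (0.26), and for FOXP1 IDH3A (0.21), LOC124902806 (0.28) and CIB2 (0.30). The distances of FOXO1 to its nearest genes were the widest of the 4.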

How the data were processed

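ChIP-seq peak lists of OCT2, OCT1, OCA-B, MED1, EP300 and CREBBP in OCI-Ly7 cells were used, 1 library each. MACS2 2.1.1.20160309, SAMtools 1.3.1, Bowtie2 2.3.2.2 and CASAVA 1.8.2 are listed, with build hg38, per the submitters' processing notes. Per the file headers, each ChIP library was set singly against a common input (37517450 tags kept) at a q threshold of 0.05, and duplicate tags made up a share of 0 in the CREBBP and MED1 files and up to 0.20 in the others, a difference that was not adjusted for. The deposited tables give for each peak the pileup signal in fragments, the −log10 p and q, and the fold enrichment over the local background, as given by the authors' peak caller.

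From these, peaks on chromosomes 1 to 22 and X were assigned to genes and merged across lists (1 bp of overlap or more, chained). Starts came from the RefSeq promoter table of GRCh38.p14 (35116 starts, all 4 genes matched). Where it listed none, both gene ends were taken. Places among all genes, shares and exact intervals were computed with Python 3.11.15, pandas 2.3.3, numpy 2.4.6 and scipy 1.17.1 and the assignment was tested on simulated peaks. The genes named were, by rule, the 4 members, each list's strongest distal and promoter peaks, the 4 densest genes of the forkhead, regulator and target lists and those without a region, the 3 most alike genes, and neighbours with a peak at their start. FOXO6, FOXP2, FOXP3, FOXP4, PIK3R1, RAG1 and RAG2, and the strong regions described beside the strongest, were chosen after their values were seen. Some genes that the rule or the lists would name are not reported here. The members and lists were chosen with earlier results of these data known. Alternatives varied the window, promoter distance, threshold, list length, overlap rule and assignment.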

Additional observations from a re-analysis of the deposited data

How the results depend on the processing

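Of 84 alternative values, 64 stayed within 1.5 times the reported value or within its interval and 20 did not; no cause of a change was tested. With each list shortened to its 23571 strongest peaks, distal regions numbered 34 at FOXO1, 15 at FOXO3, 6 at FOXO4 and 34 at FOXP1. In that setting no promoter list remained at FOXO1 (0) or FOXO4 (0), FOXO4 had 0 regions with all 6 lists, and its OCT2 share with OCA-B was 100% (1 of 1 peak). The share of genes at least as dense became 2.50% for FOXO1 and 28.4% for FOXP1 in the same setting, and 0.816% for FOXO1 without the EP300 list; these density alternatives were chosen after seeing the data. A promoter limit of 500 bp left FOXO3 with 2 lists. For FOXO4, a 50 kb window gave 9 distal regions and 1 with all lists, assignment to the nearest protein-coding gene gave 2 and 0 and an OCT2 share of 100% (1 of 1), −log10 q of at least 5 gave 0 with all lists, and summits within 250 bp gave 1. Summits within 250 bp gave 7 such regions at FOXP1. No replicate could be left out. No paired analysis was possible because each factor had 1 library and the results come from no test. The CREBBP library was the shallowest (12357450 tags), and weak sites in it may be missed.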

Other observations

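Across the distal regions of the 4 genes that 2 lists shared, the highest folds went together for most of the pairs of lists examined. This is a description without a test, since the points share libraries, input and neighbourhood. The same was not computed over all distal regions. Spearman's rho was 0.88 for CREBBP and EP300 (80 regions), 0.80 for OCA-B and MED1 (58), 0.77 for CREBBP and MED1 (57) and 0.76 for OCA-B and OCT2 (76). It was 0.60 for OCA-B and EP300 (74) and 0.59 for OCT2 and EP300 (122). OCT1, which was paired with OCA-B and OCT2 only, stood lower, at 0.36 with OCA-B and 0.36 with OCT2 (25 regions each). At FOXO1 alone rho was 0.87 for OCA-B and CREBBP (22 regions) and −0.02 for OCT2 and OCT1 (8 regions), and at FOXP1 0.88 for OCA-B and MED1 (20 regions) and 0.20 for OCA-B and OCT1 (10 regions).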
